A study of Mus musculus with 2 samples.

Results

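The Hippo pathway genes described here are the 10 listed symbols Yap1, Wwtr1, Tead1, Tead2, Tead3, Tead4, Lats1, Stk3, Stk4 and Sav1, 10 of 55421 genes in the count table. They were chosen by name, and all 10 were found in GENCODE release M21 through their Ensembl identifiers. The samples were E14 mouse embryonic stem (ES) cells of 129/Ola background with Ago1 knocked out, sequenced as polyadenylated RNA in 2 libraries, KO1 and KO2. E14 is a line derived from blastocysts, and these cells grew on gelatin in medium with serum and leukaemia inhibitory factor. The labels do not say whether the duplicates are separate clones or cultures, and differences between them may be technical. Neither the way Ago1 was disrupted nor an unedited control library was part of what was analysed. With 1 group there is no contrast between conditions. The values show what the knockout cells expressed and how far the duplicates differed.

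In the Hippo pathway, the MST kinases, helped by the scaffold protein SAV1, phosphorylate the LATS kinases, which in turn phosphorylate the coactivators YAP and TAZ and keep them out of the nucleus. When the kinases are inactive, YAP and TAZ enter the nucleus and bind the TEAD transcription factors, which hold them on DNA. In the early mouse embryo this pathway separates the outer trophectoderm, where YAP and TEAD4 switch on Cdx2, from the inner cells that give rise to ES cells. The genes have older names in part: Wwtr1 encodes TAZ, Stk4 encodes MST1 and Stk3 encodes MST2.

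AGO1 binds microRNAs, and the most typical ones of mouse ES cells belong to the miR-290 and miR-302 families. Some microRNAs of both families share a seed, the bases 2 to 8 that pair with target mRNAs. The mature sequences of 3 of them are given first, because this seed, and no other, was searched for in the 3′ UTRs of the members. They come from RefSeq on build GRCm38.p6, with the seed in capitals.
miR-291a-3p: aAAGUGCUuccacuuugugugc
miR-294-3p: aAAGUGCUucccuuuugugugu
miR-302b-3p: uAAGUGCUuccauguuuuaguag
The 3 sequences differ after the seed and hold the same AAGUGCU. A match in an mRNA was taken as AGCACTT, or GCACTTA, or both overlapping as AGCACTTA, on the strand of the transcript.

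Of the 10 members, 3 held such a match in the 3′ UTR of their longest coding transcript: Wwtr1, Lats1 and Stk4, with 1 match each. The sites are shown on the mRNA strand from the GENCODE M21 transcripts (GRCm38), in windows of 29 bases with the match in capitals, and beside them those of Lats2, the paralog of Lats1, which is not among the members.
Wwtr1, chr3:57457010-57457038, minus strand: tctctctctgAGCACTTcaagagagacaa
Lats1, chr10:7714146-7714174, plus strand: tcagtggtagAGCACTTgcctaacataca
Stk4, chr2:164151877-164151905, plus strand: tctgttagccAGCACTTctgctctgtcat
Lats2, chr14:57691075-57691103, minus strand: gtatggaaagAGCACTTAttttgtggata
Lats2, chr14:57690976-57691004, minus strand: tgtatctgatAGCACTTgtccacagctag
The Stk4 match began 56 bases into a UTR of 3693 bases, close to the stop codon. Those of Lats1 and Wwtr1 lay deeper, at base 1146 of 3450 and at base 1898 of 3277. Lats2 had the only 8-base match among these 11 genes, at base 195 of a UTR of 1626 bases, and a further 7-base match at base 294.

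Such matches are common in long UTRs. Over 12026 detected protein-coding genes, 21.0% had at least 1, near the share of the members. Among genes whose UTR length was within 25% of the gene in question, the share was 39.9% for Wwtr1, 41.3% for Lats1, 42.6% for Stk4 and 22.3% for Lats2. The members together held 0.114 matches per kb of UTR, against 0.166 over all detected coding genes. No 7- or 8-base match to the seed AAGUGCU was found in Yap1, in the 4 TEAD genes, in Stk3 or in Sav1, although the UTR of Tead1 has 8147 bases. The letters are a description of the sequence. Whether the microRNAs act there in these cells was not tested.

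**Figure D1:**
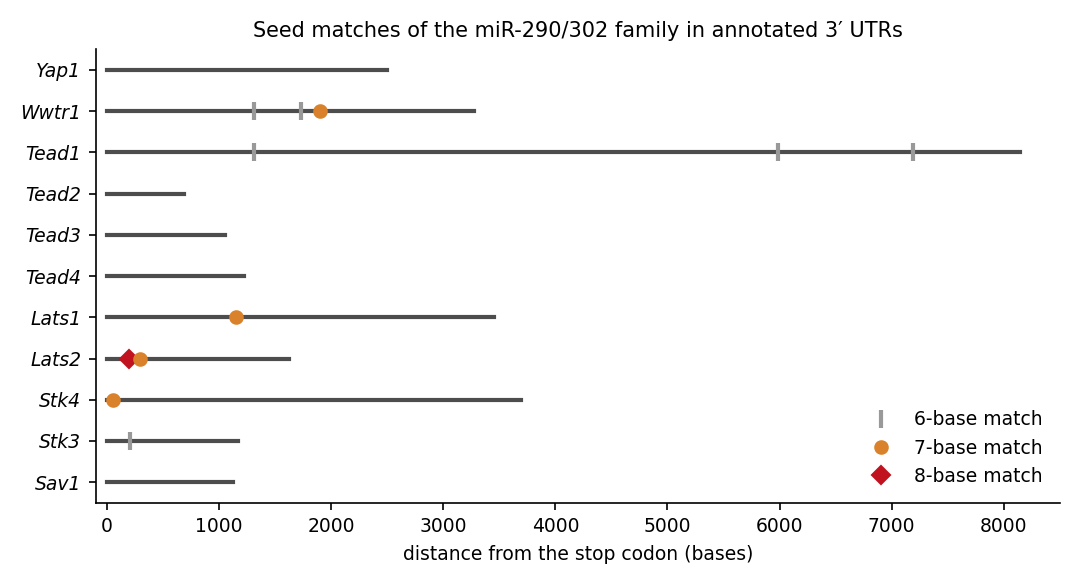
The annotated 3′ UTR of each member and of Lats2 is drawn to scale, with the distance from the stop codon in bases on the horizontal axis and markers for 6-, 7- and 8-base seed matches. Wwtr1, Lats1 and Stk4 each carry 1 match of 7 bases, Lats2 carries matches of 7 and 8 bases, and the 8147 bases of Tead1 carry 6-base matches only.

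The motif that TEAD proteins bind, GGAATG on either strand, was searched in RefSeq promoter windows of 300 bases, from 250 before to 50 after a start site, on build GRCm38.p6. An entry was found for 7 members, and Tead1, Tead4 and Stk3 had none. Of these 7, 4 held the motif in at least 1 window: Yap1, Wwtr1, Sav1 and Tead3, with 6 of the 10 windows. Over 32851 windows of all genes the share was 14.7%, and windows of 1 gene can overlap, as both of Wwtr1 do around the same motif. That share is per window and was not matched for GC content. No share per gene is given here to set beside the 4 of 7 members. The stretches of both coactivators and of Sav1 are shown, 50 bases each on the strand of the gene, with the motif in capitals.
Yap1, chr9:8004710-8004759, minus strand: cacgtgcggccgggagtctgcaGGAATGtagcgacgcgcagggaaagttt
Wwtr1, chr3:57576019-57576068, minus strand: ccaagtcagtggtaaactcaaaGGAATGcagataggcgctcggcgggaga
Sav1, chr12:69987081-69987130, minus strand: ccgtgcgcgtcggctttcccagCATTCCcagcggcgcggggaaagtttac
Counted from the annotated start, the first base of the motif was at position -141 in Yap1, at -106 in Sav1 and, for either start of Wwtr1, at -136 or -170. Member windows had a GC content of 61.3% to 78.3%, against a median of 52.7% over all windows. A match in these windows does not show that a TEAD protein binds there.

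KO1 held 57048330 counts in total and KO2 held 54408708. Reads of the targeted Ago1 were present in both, 1497 in KO1 and 452 in KO2. Ago1 was thus 3.18-fold (95% interval 2.87 to 3.55) higher in KO1 than in KO2, and the part of this in the differences given below was not tested. At 26.4 CPM in KO1 and 8.27 CPM in KO2, Ago1 was detected, so these counts do not by themselves show the knockout that the labels name. The kind of allele is not known here, and a count over the whole gene does not show whether the transcript was intact. All 6 ES cell markers were detected, led by Pou5f1 at 434 ± 122 RPKM and Zfp42 at 382 ± 2.71 RPKM (SD, n = 2 here and for every mean below). Of the 7 fibroblast markers, 1 was detected, Thy1, and neither library had a read of the matrix genes Lum and Postn, where 0 counts allow at most 0.0528 counts per 1000000 (CPM) in KO1 and at most 0.0549 CPM in KO2. Intervals and floors here cover counting error only and leave out other variation between libraries. They may also be too narrow for counting error, because reads amplified by PCR are not independent molecules.

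All 10 members were detected, that is, had at least 1 CPM in both libraries, as did 55.3% of 21976 protein-coding genes. In bulk RNA, few cells with much of an mRNA and many cells with little of it cannot be told apart. Levels are compared between genes as RPKM, here normalised counts per 1000000 and per kb of the merged exons of a gene. By this length Stk4 was the highest, followed by Yap1, Tead2 and Tead1, of which each overlapped the next in its 2 values. Sav1, Tead4, Wwtr1 and Stk3 formed the next step, again each overlapping the next. Lats1 lay below them, and Tead3 was far below all others. The place of Stk4 depends on the length used. Yap1 had more counts in both libraries and a shorter longest coding transcript, 4171 bases against 5232, so it was above Stk4 by that length. Tead1 too had more counts in both, and its coding length was 1308 bases against 1461, which put it above Stk4 by coding length.

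Yap1 encodes YAP, the coactivator at the end of the kinase cascade (chromosome 9, 7931999 to 8004596, minus strand, GRCm38). It had 9878 counts (18.8 RPKM) in KO1 and 9685 counts (19.1 RPKM) in KO2, a mean of 19.0 ± 0.259 RPKM. That placed Yap1 above 78.3% of detected protein-coding genes, with libraries that nearly coincided. Wwtr1, encoding the related coactivator TAZ (chromosome 3, 57455649 to 57575910, minus strand), had 1960 counts (7.22 RPKM) in KO1 and 1672 counts (6.40 RPKM) in KO2. At 6.81 ± 0.577 RPKM it stood near the median of detected coding genes, which was 5.85 RPKM. Per kb, Yap1 exceeded Wwtr1 by 2.60-fold in KO1 and by 2.99-fold in KO2, so the coactivator mRNA was mostly Yap1 in both libraries. Their sum was 26.0 RPKM in KO1 and 25.6 RPKM in KO2.

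**Figure D2:**
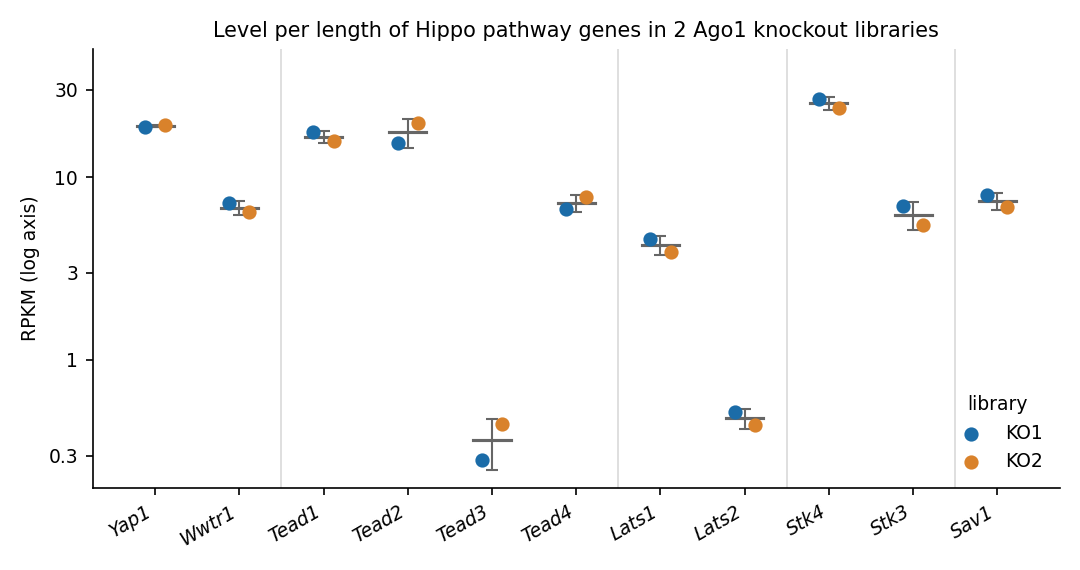
RPKM of the 10 members and of Lats2 on a log axis, with KO1 and KO2 as points and the mean and SD of 2 libraries as bars. Per kb of merged exons Stk4 is highest, at 25.4 RPKM on average, and Tead3 and Lats2 lie below 0.6 RPKM.

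The TEAD proteins bind DNA but need a coactivator to activate transcription. Tead1 (chromosome 7, 112679318 to 112906807, plus strand) had the highest counts of the 10, 13538 (17.6 RPKM) in KO1 and 11653 (15.7 RPKM) in KO2. Tead2 (chromosome 7, 45215753 to 45233644, plus strand), known as the TEAD gene expressed from the earliest stages of the mouse embryo, had 4155 counts (15.3 RPKM) in KO1 and 5186 counts (19.8 RPKM) in KO2. The order of Tead1 and Tead2 per kb of merged exons thus differed between the duplicates: Tead1 over Tead2 was 1.15 (95% interval 1.11 to 1.19) in KO1 and 0.793 (0.767 to 0.819) in KO2. Over both libraries they averaged 16.6 ± 1.30 RPKM for Tead1 and 17.5 ± 3.22 RPKM for Tead2, a difference smaller than their spread. The change of order was seen with merged exons and with the longest transcript, but per kb of coding length Tead1 over Tead2 was 3.33 in KO1 and 2.29 in KO2.

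Tead4, the TEAD gene required for the trophectoderm (chromosome 6, 128224288 to 128300823, minus strand), had 1364 counts (6.67 RPKM) in KO1 and 1532 counts (7.79 RPKM) in KO2. It was lower than Tead1 and Tead2 in both libraries, with Tead2 over Tead4 at 2.29 in KO1 and 2.54 in KO2. Tead3, best known from the placenta (chromosome 17, 28331671 to 28350817, minus strand), had 108 counts (0.283 RPKM) in KO1 and 163 counts (0.444 RPKM) in KO2. Only 4.27% of detected coding genes were lower than Tead3. The 4 genes together gave 39.8 RPKM in KO1 and 43.8 RPKM in KO2, of which Tead1 made up 44.1% in KO1 and 35.9% in KO2. Tead2 made up 38.4% in KO1 and 45.3% in KO2, Tead4 16.8% in KO1 and 17.8% in KO2, and Tead3 0.712% in KO1 and 1.01% in KO2.

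Among the kinases, Stk4 (MST1; chromosome 2, 164070322 to 164155524, plus strand) had 8954 counts (26.9 RPKM) in KO1 and 7643 counts (23.9 RPKM) in KO2. At 25.4 ± 2.14 RPKM it was above 83.6% of detected coding genes. Stk3 (MST2; chromosome 15, 34875496 to 35178921, minus strand) had 2426 counts (6.98 RPKM) in KO1 and 1820 counts (5.45 RPKM) in KO2. Stk4 supplied 79.4% of the MST reads per kb in KO1 and 81.4% in KO2. Sav1, the scaffold that joins MST to LATS (chromosome 12, 69965012 to 69987002, minus strand), had 2384 counts (7.97 RPKM) in KO1 and 1976 counts (6.87 RPKM) in KO2, and these values overlapped those of Stk3. The exons of Sav1 lie under Atl1 on the opposite strand over 25.4% of their length. The labels describe the libraries as reverse-stranded, but the sources used here do not say whether the counting used the strand.

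Lats1, the kinase that phosphorylates YAP directly (chromosome 10, 7681214 to 7716460, plus strand), had 1904 counts (4.59 RPKM) in KO1 and 1548 counts (3.88 RPKM) in KO2. Its paralog Lats2 had 207 counts (0.523 RPKM) in KO1 and 167 counts (0.438 RPKM) in KO2. Lats1 therefore gave 89.8% of the LATS reads per kb in KO1 and 89.9% in KO2. Among the paralog families, this split differed least between the libraries as counted, though on few counts of Lats2 and without the correction for GC content given below. The exons of Lats2 are shared over 42.4% of their length with Gm49361, a transcript on the same strand that was listed at 0 in both libraries, and how reads of the shared part were counted is not known. If no read of the shared part was counted, the whole count of Lats2 falls on the unshared 4016 bases. That setting, added after seeing the data, gives an upper limit of 0.834 ± 0.103 RPKM for Lats2 and a lower limit of 83.6% for the share of Lats1.

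These shares depend on the length chosen to scale the counts. Yap1 made up 73.6 ± 1.91% of its pair on merged exons but 85.9% on the longest coding transcript, and Stk4 80.4 ± 1.44% but 68.7%. In both pairs the same gene remained the larger under every length tried. For the TEAD genes the choice mattered more, since the 3′ UTR of Tead1 is long: Tead1 made up 40.0 ± 5.82% of the family on merged exons, 40.1% on the longest transcript and 67.0% on coding length.

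**Figure D3:**
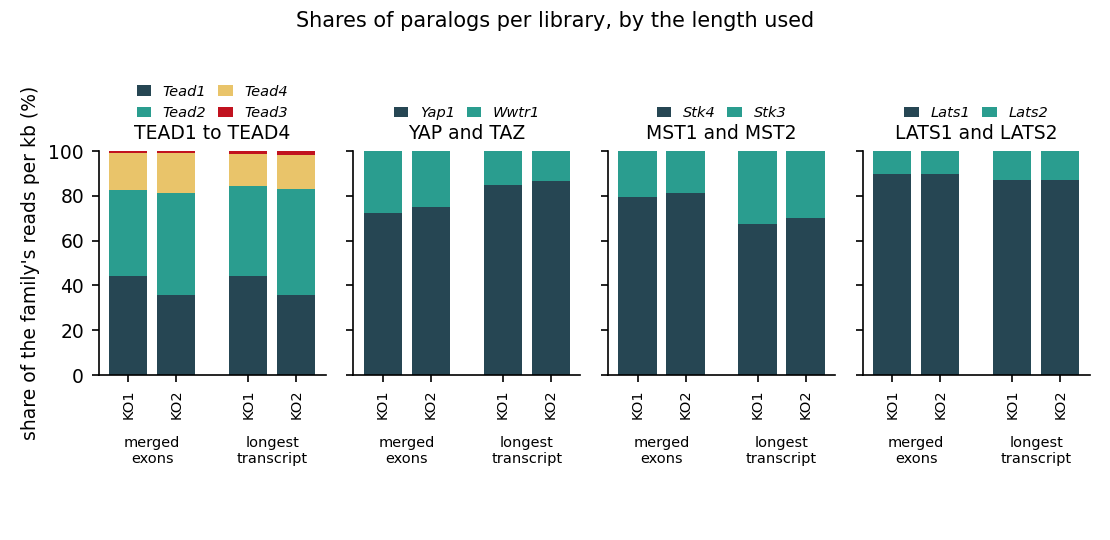
Stacked bars give each paralog's share of its family's reads per kb in KO1 and KO2, in percent, once with merged exons and once with the longest coding transcript as the length. Tead1 is the largest TEAD share in KO1 and is second to Tead2 in KO2, while Yap1, Stk4 and Lats1 lead their pairs in every bar.

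The duplicates were next set against each other as the ratio of normalised counts, KO1 over KO2, with an exact conditional binomial 95% interval. A difference was called where both ends of that interval passed 2-fold, for genes with 50 or more counts over both libraries. None of the 10 members met this, beside 1.06% of 15619 genes, and none met it at 1.5-fold, beside 6.60% of the same genes, so that a count of 0 among 10 lies near the background. These 2 libraries belong to 1 group, so a ratio compares libraries and has no replicate check, and no p-value is given.

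The 6 members higher in KO1 were Stk3, Lats1, Sav1, Stk4, Wwtr1 and Tead1. Stk3 had the highest ratio, 1.28 (1.21 to 1.36), and Tead1 the lowest of them, 1.12 (1.09 to 1.15). Lats1 was at 1.18 (1.11 to 1.27), Sav1 at 1.16 (1.09 to 1.23), Stk4 at 1.13 (1.09 to 1.16) and Wwtr1 at 1.13 (1.06 to 1.20). The 3 remaining TEAD genes were lower in KO1, at 0.856 (0.795 to 0.922) for Tead4, 0.771 (0.740 to 0.803) for Tead2 and 0.638 (0.495 to 0.818) for Tead3. Yap1 was at 0.981 (0.954 to 1.01), the only member whose interval covered no difference.

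The base composition of the transcripts moved with this split. The 6 genes higher in KO1 had transcripts of 42.5% (Stk3) to 46.8% (Stk4) GC, Yap1 had 50.3%, and Tead2, Tead4 and Tead3 had 57.9%, 58.1% and 59.5%. Over 15603 genes, the log2 ratio and GC content had a Spearman correlation of -0.827, given as a description over genes of the same 2 libraries. A loess fit on GC content, subtracted from the log2 ratio, left the interval of 8 members across 0, with corrected log2 ratios of -0.09 (Wwtr1) to 0.08 (Tead3). The exceptions were Tead2, at 0.23 (0.17 to 0.29), and Tead4, at 0.40 (0.29 to 0.50), both on the log2 scale and both higher in KO1 after the correction, where the uncorrected log2 ratios were -0.38 and -0.22. No member lay beyond 2-fold after it, beside 0.269% of genes, or beyond 1.5-fold, beside 0.731%. What produced the relation with GC content was not tested.

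Tead1 and Tead2, whose order per kb of merged exons, though not of coding length, differed between the duplicates, have transcripts of 46.5% and 57.9% GC. Their log2 ratios differed by 0.54 (0.47 to 0.60) before the correction and by -0.24 (-0.31 to -0.17) after it. For Yap1 and Wwtr1 the difference was -0.20 (-0.30 to -0.10) before and 0.08 (-0.03 to 0.18) after. For Stk4 and Stk3 it was -0.19 (-0.28 to -0.09) before and -0.03 (-0.13 to 0.07) after. For Lats1 and Lats2 it was -0.01 (-0.32 to 0.30) before and -0.44 (-0.75 to -0.13) after, the widest interval of the 4 pairs. Before the correction that interval covered the differences of Yap1 and Wwtr1 and of Stk4 and Stk3. After the correction Lats1 and Lats2 had the largest difference in size of the 4 pairs. Tead1 and Tead2 thus had the largest difference before the correction, and its sign turned with it.

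**Figure D4:**
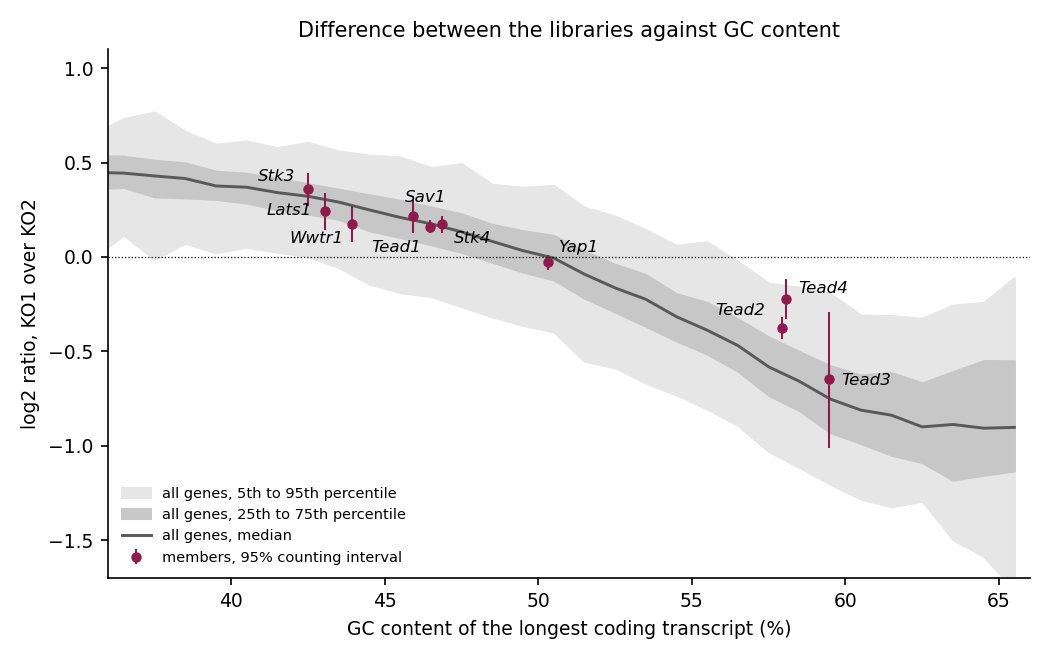
The log2 ratio of KO1 over KO2 is plotted against the GC content of the longest coding transcript, with grey bands and a line for the percentiles of all genes in bins of GC content and points with 95% counting intervals for the members. The 6 members under 47% GC lie above 0, Yap1 lies near 0 and Tead2, Tead3 and Tead4 lie below it, with Tead2 and Tead4 above the line for all genes.

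The rest of the pathway was described from 7 lists holding 102 genes, of which 90 were detected, beside 55.3% of all coding genes, and 1 lay beyond 2-fold between the libraries, near the 1.06% of all genes tested. The counts of detected genes in each list below are read against the same 55.3%. The upstream regulators pass signals from cell contacts and the cytoskeleton to the kinases, and 22 of 26 were detected. Nf2, which encodes the membrane-linked tumour suppressor Merlin, was the highest at 24.0 ± 0.673 RPKM, followed by Fat1, a giant protocadherin, at 21.1 ± 2.33 RPKM. The other protocadherins of that arm were near 0: Dchs2 was counted 9 times in KO1 and 12 times in KO2, and Fat4 had 2 counts in KO1 against 0 in KO2.

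All 6 kinase cofactors and related kinases were detected. Mob1a, the LATS cofactor, reached 35.0 ± 6.29 RPKM and Stk38, a kinase related to LATS, 13.9 ± 0.977 RPKM, while Mob2 had 2.73 ± 0.459 RPKM and Lats2 was the lowest. The STRIPAK complex, a phosphatase assembly that switches MST kinases off, was detected with 12 of 12 genes. Its phosphatase subunits led, with Ppp2r1a at 79.2 ± 13.4 RPKM and Ppp2ca at 47.4 ± 5.32 RPKM, and Strn and Sike1 were the lowest at 4.68 ± 0.693 and 2.84 ± 0.297 RPKM. All 5 genes listed as LATS inhibitors were detected, and whether each of them acts on LATS in these cells was not tested. Ajuba, a LIM protein that holds LATS back, had 41.1 ± 6.30 RPKM and Dcaf12 38.9 ± 0.578 RPKM, against 15.3 ± 4.15 RPKM for Wtip and 2.72 ± 0.0246 RPKM for Limd1.

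Of the proteins that bind YAP and TAZ or control their turnover, 20 of 20 were detected. Ywhae and Ywhaz, which encode adaptors that retain phosphorylated YAP in the cytoplasm, were the most abundant at 485 ± 26.5 and 185 ± 18.8 RPKM. The angiomotin gene Amot and the phosphatase gene Ptpn21 were the lowest at 1.85 ± 0.151 and 1.79 ± 0.0672 RPKM. Sfn, from the same adaptor family, was the list gene beyond 2-fold, with 566 counts in KO1 and 1303 in KO2. Its log2 ratio was -1.26, and after the GC correction it was -0.51 and no longer beyond 2-fold.

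On the nuclear side, 8 of 10 TEAD cofactors were detected, led by Ncoa3, a steroid receptor coactivator, at 45.3 ± 3.68 RPKM and Arid1a, a subunit of the BAF chromatin remodeler, at 33.6 ± 5.20 RPKM. The Vgll genes encode proteins that compete with YAP for TEAD. Vgll1 had 6 counts in KO1 against 4 in KO2, Vgll2 had 0 in both, and the other members of the family, Vgll3 at 0.619 ± 0.0668 RPKM and Vgll4 at 1.44 ± 0.371 RPKM, were detected. Vgll3 and Vgll4 were chosen for mention after their values were seen. Of 27 target genes described for YAP and TEAD in other cells, 21 were detected. Birc5, an inhibitor of apoptosis, had 48.4 ± 0.0134 RPKM, followed by Ajuba, which is a member of this list too. Areg, a growth factor of the EGF family, had 1 count in KO1 against 0 in KO2, and Rbms3 had 3 counts in KO1 against 1 in KO2. The widely used readouts of YAP activity, named after their values were seen, had unlike levels: Ccn2 had 7.29 ± 0.464 RPKM and Ccn1 4.31 ± 0.245 RPKM, whereas Ankrd1 had 19 counts in KO1 against 14 in KO2 and was not detected.

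**Figure D5:**
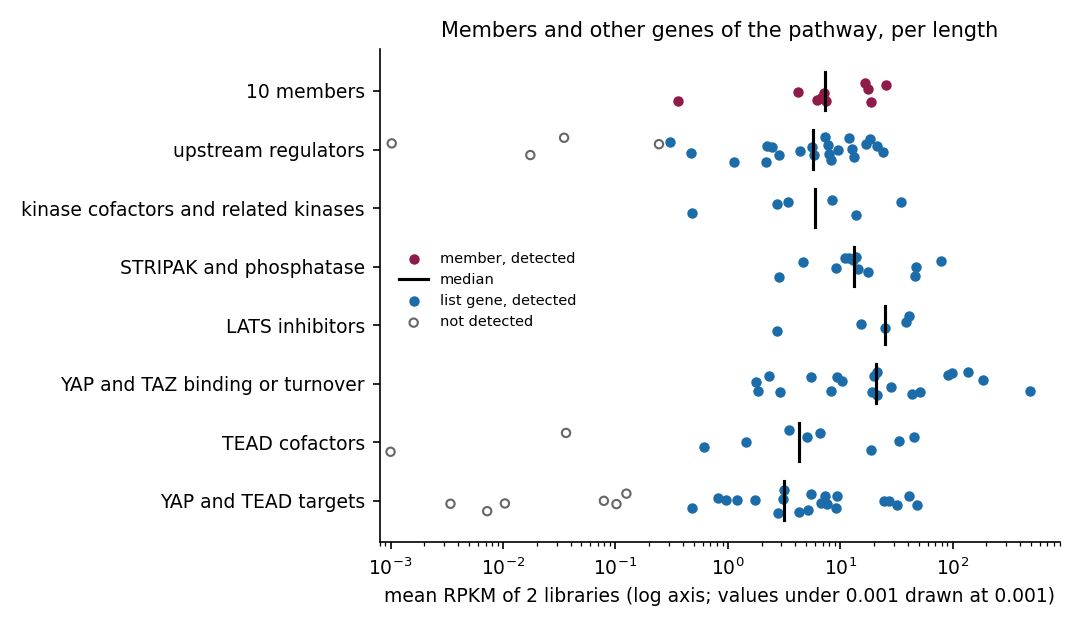
Mean RPKM of 2 libraries on a log axis for the 10 members and the genes of 7 pathway lists, with filled points for detected genes, open points for those not detected and a black bar for the median of each list. The members, apart from Tead3, lie between 4 and 26 RPKM, and the undetected genes are in the lists of upstream regulators, TEAD cofactors and targets.

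The ratios of the lists are given beside their GC content. Among genes averaging 10 or more counts, the median log2 ratio was 0.17 over the members, against -0.01 over 18115 genes of the table. It was -0.23 for the upstream regulators (median GC 52.4%), 0.23 for the kinase cofactors (46.3%) and 0.22 for the STRIPAK genes (46.5%), and between -0.06 and -0.01 for the other 4 lists. After the correction the medians were 0.02 for the members, 0.05 for upstream regulators, 0.07 for kinase cofactors and 0.02 for STRIPAK, and between -0.07 and 0.13 for the rest, against 0.01 over the table.

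Tead4 and YAP are known for their part in the trophectoderm, so markers of it were listed beside those of the primitive endoderm. Of 8 trophectoderm markers, 4 were detected, the keratins Krt8 and Krt18 and the transcription factors Tfap2c and Eomes. Cdx2, the TEAD4 target that defines the lineage, counted 16 reads in KO1 and 21 in KO2, and Gata3 had 6 in KO1 and 16 in KO2, both genes under 1 CPM. Elf5 had 8 reads in KO1 against 1 in KO2, and Hand1 had 25 in KO1 against 44 in KO2. The summed level of the 8 genes was 59.5 CPM in KO1, against 76.9 CPM in KO2, without the correction for GC content. Their median GC content was 55.1%. The 7 of them with enough counts for a list median were all lower in KO1 before the correction. The median log2 ratio of these 7, KO1 over KO2, was -0.44 before the correction and -0.06 after it. The 5 primitive endoderm markers were all detected at low levels, summing to 43.8 CPM in KO1 and to 50.3 CPM in KO2, again uncorrected. Their median log2 ratio was -0.28 before the correction and -0.13 after it, at a median GC content of 52.6%. Whether the libraries differed in the share of cells of either lineage was not tested. Tead4 at 26.0 ± 2.85 CPM was thus present beside little Cdx2.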

How the data were processed

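Polyadenylated RNA of 2 Ago1 knockout libraries was analysed. The deposited values are raw read counts, 1 whole number per gene and library. The submitters' processing notes name GRCm38 as the build. The sources used here do not give the aligner, the counting program or its strand setting. The members, lists, tests and the rule for naming genes were chosen with earlier results of these data known.

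Gene names, lengths and GC content came from GENCODE M21, with 55240 of 55421 identifiers matched. Counts were scaled with edgeR 4.0.16 (R 4.3.3), with TMM factors of 0.996 for KO1 and 1.00 for KO2, and divided by merged exon length. The log2 ratio of KO1 over KO2 used a prior count of 0.5 and the exact conditional binomial interval. GC content was that of the longest coding transcript, or of the longest transcript for noncoding genes. The GC correction was a loess fit with a span of 0.3 over genes with 50 or more counts in sum. No quasi-likelihood test was possible with 1 group. The rule named all members, the 2 highest and 2 lowest genes of each list per kb, any list gene beyond 2-fold, Lats2 and Ago1. Alternatives were other scalings (DESeq2 1.42.0 size factors among them), lengths, thresholds and match lengths. The ratio rule was tested on simulated data. Other steps used python 3.11.15, scipy 1.17.1 and statsmodels 0.14.6. For counts in 1 library, the 95% interval covers counting error only.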

Additional observations from a re-analysis of the deposited data

How the results depend on the processing

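No member was called as differing, so no call could reverse among the 239 alternatives. With the GC correction the uncalled log2 ratios turned in sign for Tead2 (0.23), Tead4 (0.40), Tead3 (0.08), Wwtr1 (-0.09), Lats1 (-0.05) and Tead1 (-0.01). That of Yap1 turned with DESeq2 size factors (0.03). Those factors were 1.0 for both libraries, so this setting left the difference in total counts between KO1 and KO2 unscaled. No paired analysis was possible because both libraries belong to the same group. The share of Tead1 among the TEAD genes was 66.8% on counts with no length scaling and 67.0% on coding length, against 24.8% and 24.4% for Tead2. On merged exons the mean shares were 40.0% for Tead1 and 41.8% for Tead2, with Tead1 ahead in KO1 and Tead2 ahead in KO2. The share of Yap1 was 84.4% on counts, 85.9% on the longest transcript and 81.4% on coding length, that of Stk4 68.7% on the longest transcript, and that of Lats1 90.2%, 86.9% and 89.5% in the order given for Yap1, and 83.6% with the Lats2 count divided by its unshared exons alone, a lower limit. With an 8-base seed match 0 members were counted, beside 3.501% of detected protein-coding genes. With a 6-base match 5 members were counted, beside 33.5% of the same genes. Neither background share was matched for UTR length. Of 11 log2 ratios (the members and Lats2), 9 moved beyond their counting interval in each of 3 GC fits and 3 with DESeq2 size factors, while library size without TMM and a prior count of 2 moved 0. Using either library alone could not move a mean of 2 beyond its own spread and says nothing about stability. Depth limited Tead3 and Lats2 most, with the fewest counts.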
